A study of Mus musculus with 4 samples.

Results

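A set of 10 lysosomal genes was followed through an RNA immunoprecipitation of YTHDF1: the cathepsins Ctsa, Ctsb, Ctsd, Ctsl and Ctsz, and the lysosome genes Lamp1, Lamp2, Psap, Grn and Hexa. They are a fixed list of 10 Ensembl gene IDs out of the 53465 rows of the count table, and all 10 were found and passed the filter on low values that left 12927 genes. The names come from the list itself, since the table gives only IDs. The list was drawn up because cathepsin mRNAs are reported targets of YTHDF1 in dendritic cells. Its members were chosen with earlier results of these data known, so shares of members set beside all genes are descriptive. The cells here are Hepa 1-6, a murine hepatocellular carcinoma line. RNA was sequenced from 4 libraries, each the only one of its group: the YTHDF1 RIP and the input of cells with the guide sgUsp5, which the labels call a Usp5 knockdown, and the YTHDF1 RIP and the input of cells with sgcontrol, labelled WT. Each input was 10% of the lysate from which the RIP of the same cells was made, so both libraries of a guide come from 1 lysate. The labels do not state whether each guide's cells were 1 clone or a pool, and a precipitate made with a control antibody was not used here.

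Cathepsins are the proteases of the lysosome, made in the endoplasmic reticulum and sent to the acidic organelle, where they degrade proteins taken up or delivered by autophagy. LAMP proteins coat the lysosomal membrane, and prosaposin, progranulin and hexosaminidase serve the breakdown of lipids and the function of the hydrolases. Many genes of this organelle share a promoter motif, the CLEAR element, which is built on the E-box CACGTG and read by the transcription factors TFEB, TFE3 and MITF, which mTORC1 holds in the cytoplasm. YTHDF1 is a cytoplasmic reader of N6-methyladenosine in mRNA. In dendritic cells of mice it binds cathepsin transcripts and raises their translation. USP5 is a deubiquitinase.

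In RefSeq's annotation of the GRCm38.p6 assembly, the build of which mm10 is another name, the 5 cathepsin genes lie on chromosome 2 (Ctsa, ENSMUSG00000017760, 164832872 to 164841032, and Ctsz, ENSMUSG00000016256, 174427494 to 174439039), chromosome 14 (Ctsb, ENSMUSG00000021939, 63122462 to 63145923), chromosome 7 (Ctsd, ENSMUSG00000007891, 142375910 to 142387827) and chromosome 13 (Ctsl, ENSMUSG00000021477, 64361890 to 64370772). Lamp1 (ENSMUSG00000031447) lies on chromosome 8 (13159161 to 13175338), Lamp2 (ENSMUSG00000016534) on chromosome X (38399647 to 38456460), Psap (ENSMUSG00000004207) on chromosome 10 (60277628 to 60302600), Grn (ENSMUSG00000034708) on chromosome 11 (102430507 to 102436809) and Hexa (ENSMUSG00000025232) on chromosome 9 (59539540 to 59565109). The span of Ctsa overlaps Neurl2 and Pltp, that of Ctsb overlaps Fdft1, that of Ctsz overlaps Nelfcd and that of Hexa overlaps Tmem202. The handling of strand in the authors' counting is not given in the sources used here, so reads in such shared stretches may have been counted for either gene or for none. Lamp2 also overlaps 1 predicted locus.

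RefSeq promoter windows, from 250 bases before to 50 bases after a transcript's start, were matched for 9 of the 10 genes. The E-box CACGTG, which reads the same on both strands, was found in windows of Ctsa, Ctsd, Ctsl and Lamp1 (4 of 9 genes), against 8.09% of the 27025 genes in the promoter table. The longer form TCACGTGA, which contains it, was found in Ctsa and Ctsd, against 1.12% of all genes. A still longer form, with a further base on each side, was found in 0 of the 9 genes, against 0.37% of all genes. At so low a share, 0 of 9 does not tell the members from other genes. The matches in these members are thus of the E-box and its shorter extension only. The stretches around the E-boxes of Ctsa, Ctsd, Ctsl and Lamp1 are shown because they are what these members share in sequence. Capitals mark the E-box, and each is written 5′ to 3′ on the strand of the gene.
Ctsa, second annotated start, chr2:164833758-164833784, plus strand: tgtCACGTGatgcagatgctCACGTGa
Ctsd, chr7:142387900-142387945, minus strand: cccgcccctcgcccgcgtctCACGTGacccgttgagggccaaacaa
Ctsl, start inside the gene, chr13:64370739-64370768, minus strand: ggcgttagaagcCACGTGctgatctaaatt
Lamp1, chr8:13159080-13159171, plus strand: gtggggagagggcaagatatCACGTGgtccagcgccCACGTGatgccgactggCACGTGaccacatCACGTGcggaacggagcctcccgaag
Lamp1 holds 4 boxes, whose first bases lie 61, 45, 28 and 15 bases before the start. Ctsd holds 2, which begin 245 and 98 bases before the start, and the stretch shows the nearer one. The box of Ctsl begins 236 bases before the start of its window, but that start lies 252 bases inside the annotated gene, so the box is within the gene near its 5′ end. The window of Ctsa with boxes also belongs to an inner start, 901 bases inside the gene, and its window at the gene's own start held no match. These are matches of letters, and binding of a factor to DNA was not measured.

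The libraries held 29898171 counts (sgUsp5 RIP), 31751069 counts (sgUsp5 input), 33941019 counts (sgcontrol RIP) and 30804293 counts (sgcontrol input). Together the 10 genes took 0.218% of counts in the sgUsp5 RIP, 0.288% in the sgUsp5 input, 0.197% in the sgcontrol RIP and 0.228% in the sgcontrol input. The level of Usp5, needed to check what the guide did, and markers of hepatocytes and other cells were not analysed here, since the IDs of those genes could not be paired with names. Levels are given as normalised read counts, that is, library-size-scaled counts (CPM) after TMM normalisation. They compare libraries within a gene but not genes with each other, since transcript lengths were not used here.

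**Figure D1:**
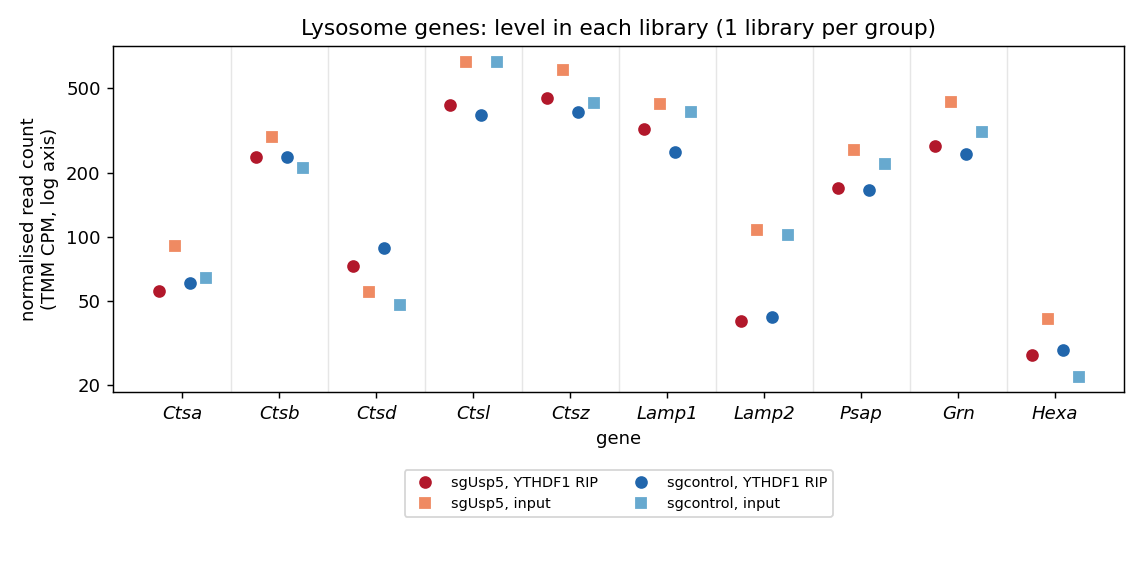
Normalised read counts (TMM CPM, log axis) of the 10 lysosome genes, with 1 point per library and 1 library per group; circles are YTHDF1 RIP libraries and squares inputs, sgUsp5 in red and orange, sgcontrol in blue. The RIP points of Ctsa, Ctsl, Lamp1, Lamp2, Psap and Grn lie below both of their inputs, and those of Ctsd lie above both. For 9 of the 10 genes the sgUsp5 input lies above the sgcontrol input.

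The first comparison asked how these mRNAs stood in the YTHDF1 RIP relative to input. After TMM scaling a ratio is relative to other genes, so a lower one does not mean that an mRNA was absent from the RIP. Relative to input, Ctsl, Lamp1, Lamp2, Psap and Grn were lower in the RIP over both lines and Ctsd was higher, while Ctsa, Ctsb, Ctsz and Hexa did not pass the test. RIP was tested against input in the 4 libraries with the guide as a block (quasi-likelihood test of edgeR, 1 residual degree of freedom, called at a Benjamini-Hochberg adjusted p under 0.05 over all 12927 genes). By that rule 5 of 10 members were lower, where 13.4% of all genes compared and 24.3% of the 5075 genes in the members' range of abundance were called lower. 1 of 10 was higher, where 11.9% of all genes and 20.8% of those at this abundance were. The median log2 ratio of the 10 genes in the fit was -0.45, that of all genes compared 0.00. As each guide gave 1 pair from 1 lysate, these p-values cover only the spread between libraries.

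Within each line there is no test. A ratio is called there when it is at least 2-fold and its 95% counting interval excludes no difference, and that interval covers counting error only (no molecular identifiers are described, so copies of 1 cDNA made by PCR count as separate reads). Lamp2 was the only member called in the sgUsp5 line, where 13.8% of all genes compared and 8.18% of genes at the members' abundance were called lower. In the sgcontrol line Lamp2 was again the only one, where 15.2% of all genes and 10.9% at this abundance were called lower. 0 members were called higher in either line, where 15.8% of all genes and 6.74% at this abundance were in sgUsp5 cells, and 18.2% and 9.18% in sgcontrol cells.

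Among the cathepsins, Ctsl had the lowest and Ctsd the highest ratio in the fit over both lines; in sgUsp5 cells alone Ctsa was slightly below Ctsl. Ctsl, a cysteine endopeptidase, had 416 CPM in the sgUsp5 RIP and 663 CPM in the sgUsp5 input, and 374 CPM in the sgcontrol RIP against 668 CPM in the sgcontrol input. Both RIP libraries were below both inputs. How many of all genes separate in this way was not counted here, so for any member this is a description only. Its log2 ratio of RIP over input was -0.67 (95% counting interval -0.70 to -0.64) in sgUsp5 cells and -0.84 (-0.87 to -0.80) in sgcontrol cells. Over both lines it was 1.69-fold lower in the RIP (log2 -0.75, edgeR adjusted p = 0.000454).

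Ctsd, the aspartic protease of the lysosome, was the one member above its input in both lines. It had 73.1 CPM in the sgUsp5 RIP and 54.8 CPM in the sgUsp5 input, and 88.6 CPM in the sgcontrol RIP against 47.8 CPM in the sgcontrol input. The 2 RIP values lie above the 2 input values. The log2 ratios were 0.42 (0.33 to 0.51) in sgUsp5 cells and 0.89 (0.80 to 0.98) in sgcontrol cells. In the test over both lines Ctsd was 1.57-fold higher in the RIP (log2 0.65, edgeR adjusted p = 0.0346). The call was lost with DESeq2's Wald test (adjusted p = 0.0837) and with 3 of the other alternatives, over which its adjusted p lay between 0.00621 and 0.139.

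The 3 remaining cathepsins did not pass the test over both lines. Ctsz, a cysteine carboxypeptidase, had 451 CPM in the sgUsp5 RIP and 611 CPM in the sgUsp5 input, and 385 CPM in the sgcontrol RIP against 426 CPM in the sgcontrol input. Ctsb, a cysteine protease that cleaves both inside chains and from their ends, had 237 CPM in the sgUsp5 RIP and 296 CPM in the sgUsp5 input, and 237 CPM in the sgcontrol RIP against 212 CPM in the sgcontrol input. Ctsa, a serine carboxypeptidase that also protects lysosomal galactosidase and neuraminidase, had 55.4 CPM in the sgUsp5 RIP and 90.4 CPM in the sgUsp5 input, and 60.8 CPM in the sgcontrol RIP against 64.0 CPM in the sgcontrol input. The groups overlapped for Ctsz and Ctsb. Both Ctsa RIP values were below both inputs, though the sgcontrol pair was close (60.8 against 64.0 CPM). The log2 ratio of Ctsa was -0.71 (counting interval -0.79 to -0.62) in sgUsp5 cells and -0.07 (-0.16 to 0.02) in sgcontrol cells. That of Ctsz was -0.44 (-0.47 to -0.41) in sgUsp5 cells and -0.15 (-0.18 to -0.11) in sgcontrol cells. Ctsb had -0.32 (-0.36 to -0.28) in sgUsp5 cells and 0.16 (0.12 to 0.21) in sgcontrol cells. Each of the 3 thus had its lower ratio in sgUsp5 cells. The edgeR adjusted p was 0.109 for Ctsz (log2 -0.29), 0.738 for Ctsb (log2 -0.08) and 0.2 for Ctsa (log2 -0.40). For Ctsb the sign of this ratio turned to 0.07 with scaling by library totals alone.

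Both membrane genes were lower in the precipitate. Lamp2, whose protein includes the receptor of chaperone-mediated autophagy, had 40.0 CPM in the sgUsp5 RIP and 108 CPM in the sgUsp5 input, and 42.0 CPM in the sgcontrol RIP against 102 CPM in the sgcontrol input. The 2 RIP values were close to each other, as were the 2 inputs, and they did not overlap. Its log2 ratio was -1.43 (-1.52 to -1.33) in sgUsp5 cells and -1.28 (-1.37 to -1.19) in sgcontrol cells. Over both lines Lamp2 was 2.55-fold lower in the RIP (log2 -1.35, edgeR adjusted p = 0.000205). Among genes of the members' abundance this placed it at percentile 2.03 in sgUsp5 cells and 5.44 in sgcontrol cells. The other members called lower over both lines lay less far out. In sgUsp5 cells Ctsl lay at percentile 17.83, Lamp1 at 30.96, Psap at 20.89 and Grn at 16.97. In sgcontrol cells Ctsl lay at 15.90, Lamp1 at 23.53, Psap at 32.06 and Grn at 35.19. The counts do not separate the splice forms of Lamp2.

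Lamp1, the other abundant membrane glycoprotein, differed less. It had 320 CPM in the sgUsp5 RIP and 423 CPM in the sgUsp5 input, and 250 CPM in the sgcontrol RIP against 386 CPM in the sgcontrol input. Its log2 ratios were -0.40 (-0.44 to -0.36) in sgUsp5 cells and -0.63 (-0.67 to -0.59) in sgcontrol cells. The test over both lines gave 1.43-fold lower in the RIP (log2 -0.51, edgeR adjusted p = 0.0112).

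Psap and Grn, which encode secreted and lysosomal precursors, moved by similar amounts. Psap, the precursor of the saposins that present sphingolipids to their hydrolases, had 169 CPM in the sgUsp5 RIP and 256 CPM in the sgUsp5 input, and 165 CPM in the sgcontrol RIP against 220 CPM in the sgcontrol input. It was 1.42-fold lower in the RIP over both lines (log2 -0.51, edgeR adjusted p = 0.0204). Grn, which encodes progranulin, had 267 CPM in the sgUsp5 RIP and 432 CPM in the sgUsp5 input, and 245 CPM in the sgcontrol RIP against 311 CPM in the sgcontrol input. It was 1.44-fold lower over both lines (log2 -0.52, edgeR adjusted p = 0.0137). For each gene both RIP values were below both inputs. With library totals alone the edgeR calls of Lamp1, Psap and Grn were lost (adjusted p = 0.0715, 0.109 and 0.0925), as they were when genes with fewer reads were let into the test. Over 10 alternatives the adjusted p lay between 0.00108 and 0.0779 for Lamp1, between 0.00335 and 0.109 for Psap and between 0.00113 and 0.0985 for Grn.

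Hexa, the alpha subunit of the hexosaminidase that degrades GM2 ganglioside, had the fewest reads. It had 27.8 CPM in the sgUsp5 RIP and 41.2 CPM in the sgUsp5 input, and 29.3 CPM in the sgcontrol RIP against 22.0 CPM in the sgcontrol input, from 882, 1269, 1045 and 627 reads. The RIP values lay between the inputs. Its ratio over both lines was -0.12 on the log2 scale (edgeR adjusted p = 0.816), and 0.04 with library totals alone.

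**Figure D2:**
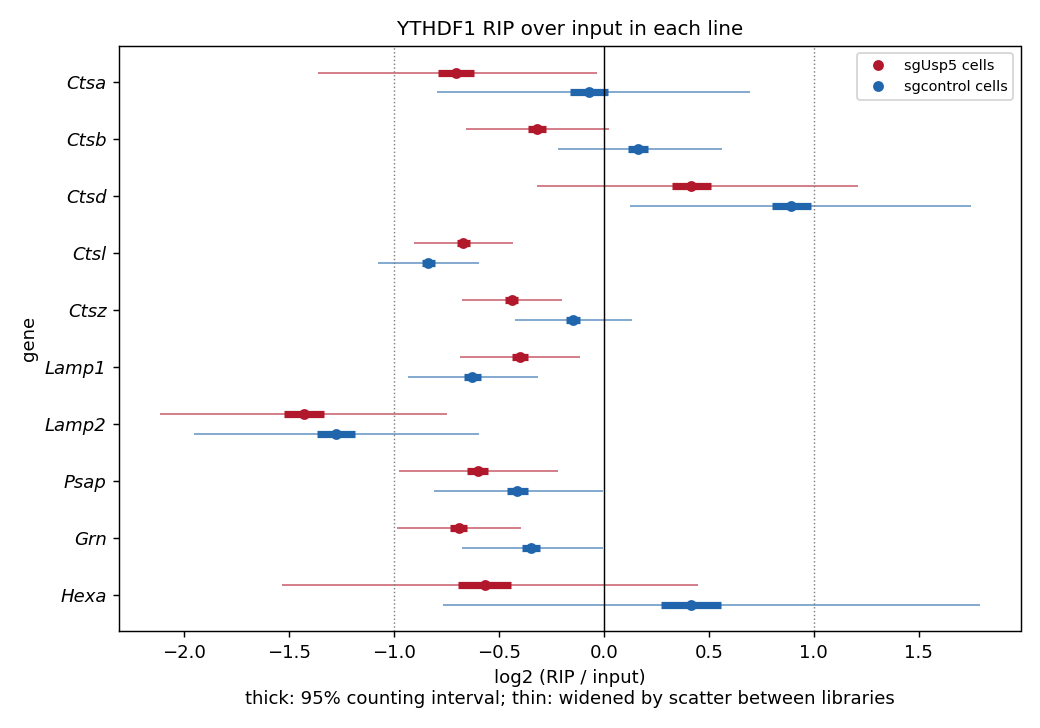
Log2 ratio of YTHDF1 RIP over input for each gene, sgUsp5 cells in red above sgcontrol cells in blue, 1 library per point. Thick bars are 95% counting intervals, thin bars the same widened by the scatter between libraries of a fraction, and dotted lines mark 2-fold. Lamp2 is the only gene beyond 2-fold, and Ctsd is the only one right of 0 in both lines.

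Libraries of the same fraction differed by more than counting error. The members' range of abundance ran from Hexa, at a mean log2 CPM of 4.87, up to Ctsl. For each gene in it the squared deviation between the sgUsp5 and sgcontrol libraries was divided by the binomial variance. The median of this quotient was 34.3 times the median that counting error alone would give for the RIPs, and 83.1 times for the inputs. These factors include any change with the guide. With counting intervals widened by them, a choice made after the data were seen, 7 of 10 members lay below 0 and 0 above in sgUsp5 cells, where 20.5% and 16.3% of genes at this abundance did. In sgcontrol cells 5 lay below 0 and 1, Ctsd, lay above, where 24.0% and 18.5% of genes did. Ctsl, Lamp1, Lamp2, Psap and Grn lay below 0 in both lines. In sgcontrol cells the widened intervals of Psap and Grn ended just below 0. They were -0.81 to -0.00233 for Psap (log2 -0.41) and -0.68 to -0.00551 for Grn (log2 -0.35). With the smaller scatter of genes at a log2 CPM of 0 to 6, Ctsb (-0.59 to -0.05) also lay below 0 in sgUsp5 cells.

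**Figure D3:**
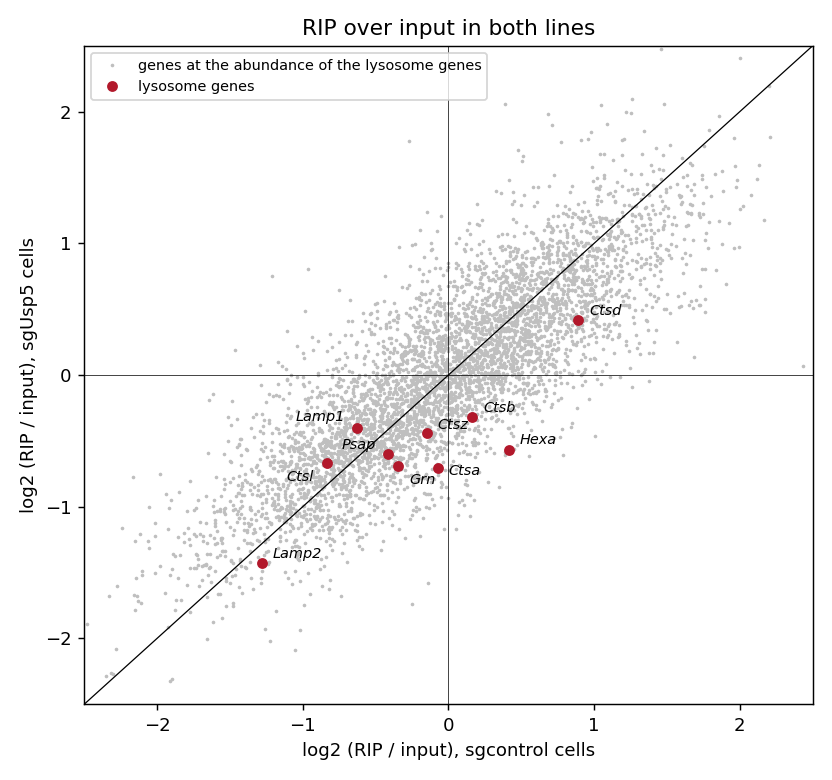
Log2 ratio of RIP over input in sgUsp5 cells (vertical) against sgcontrol cells (horizontal) for the genes in the members' range of abundance (grey; 14 of 5075 lie outside the axes) and the 10 lysosome genes (red). The diagonal marks equal ratios. Ctsd lies in the upper right, Lamp2 in the lower left, and Hexa and Ctsb to the right of and below the origin.

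The second comparison asked how the level of these mRNAs in the cells differed with the guide for Usp5. In the inputs 9 of the 10 genes had higher values with sgUsp5, all but Ctsl, and the differences were below 2-fold. The median log2 ratio of the 10 was 0.35, where the median of genes at this abundance was -0.02 (quartiles -0.26 and 0.23) and 47.9% of them lay above 0. 0 of 10 were called at 2-fold with a counting interval, where 24.6% of all genes compared and 2.21% of those at this abundance were called in either direction. There is 1 input per guide, so a difference between the cells, the lysates or the libraries cannot be told apart, nor can a change in RNA per cell and a change in the mix of cells.

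Hexa differed most, with 41.2 CPM in the sgUsp5 input against 22.0 CPM in the sgcontrol input, a 1.88-fold ratio (log2 0.91, counting interval 0.77 to 1.05). With the interval widened by the scatter between inputs it spanned 0 (-0.44 to 2.39). Ctsz came next at 1.43-fold (log2 0.52, widened interval 0.21 to 0.83), with 611 CPM in the sgUsp5 input against 426 CPM in the sgcontrol input. Ctsa followed at 1.41-fold (log2 0.50, widened interval -0.32 to 1.34). The ratios were 1.40-fold for Ctsb (log2 0.49, widened interval 0.04 to 0.93) and 1.39-fold for Grn (log2 0.47, widened interval 0.11 to 0.84).

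The widened intervals of Ctsb, Ctsz and Grn thus excluded 0 on the higher side. That is 3 of 10 members, where 1.50% of genes at this abundance did so. An interval is narrower for a gene with more reads, so this rule does not rank genes by ratio. By ratio alone Ctsb, Ctsz and Grn lay at percentiles 91.0, 92.2 and 90.4 of genes at this abundance. Ctsa (91.4) and Hexa (98.4), whose widened intervals spanned 0, had fewer reads. Psap (log2 0.22), Ctsd (0.20), Lamp1 (0.13) and Lamp2 (0.08) were closer to equal levels, and their widened intervals spanned 0. Ctsl had nearly equal inputs, 663 CPM with sgUsp5 and 668 CPM with sgcontrol (log2 -0.01, counting interval -0.04 to 0.02), and its sign turned to 0.05 with library totals alone. The genes with an E-box in the promoter window, Ctsa, Ctsd, Ctsl and Lamp1, had log2 ratios of 0.50, 0.20, -0.01 and 0.13. Those whose windows held no match, Ctsz, Lamp2, Psap, Grn and Hexa, had between 0.08 and 0.91, so that the ranges overlapped.

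In the RIP libraries the same genes showed no common direction. Higher values with sgUsp5 were seen for 6 of 10 and lower values for 4, where 48.4% of genes at this abundance lay above 0. The members' median log2 ratio was 0.02, where genes at this abundance had a median of -0.01. 0 of 10 were called, where 9.17% of all genes and 0.0985% of those at this abundance were called. Lamp1 differed most, with 320 CPM in the sgUsp5 RIP against 250 CPM in the sgcontrol RIP (log2 0.36, counting interval 0.32 to 0.40, widened interval 0.11 to 0.60). Ctsz followed with 451 CPM against 385 CPM in the sgcontrol RIP (log2 0.23, widened interval 0.03 to 0.43). The widened intervals of these 2 genes excluded 0, where 3.07% of genes at this abundance were higher by that rule. By ratio alone they lay at percentiles 94.2 (Lamp1) and 84.9 (Ctsz) of those genes. With the smaller scatter of less abundant genes Ctsl (0.00409 to 0.31) also lay above 0. Ctsz was the one member whose widened intervals lay above 0 in both fractions, by either scatter. By counting intervals alone Lamp1 and Grn also lay above 0 in both.

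Ctsd had the lowest ratio between the RIPs, with 73.1 CPM in sgUsp5 cells against 88.6 CPM in sgcontrol cells (log2 -0.28, counting interval -0.36 to -0.20, widened interval -0.75 to 0.19). Ctsa had -0.13 and Hexa -0.07 on the log2 scale. Psap (0.03) and Ctsb (0.00) had nearly equal RIP levels with either guide.

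When the guides were compared over both fractions in the same edgeR fit, with the fraction as a block, 0 of 10 members were called. At an unadjusted p under 0.05 there were 2 members, Ctsz and Grn, and DESeq2 called 0 of 10. Over all genes edgeR called 4 of 12927 (0.0309%; 0.0394% of those at this abundance) and DESeq2 called 22, and 866 had an unadjusted p under 0.05. Ctsz had the lowest p of the members, with a 1.30-fold ratio (log2 0.37, edgeR adjusted p = 0.637, and between 0.252 and 1 over the alternatives). As both libraries of a guide share a lysate, this test does not cover the spread between cultures.

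**Figure D4:**
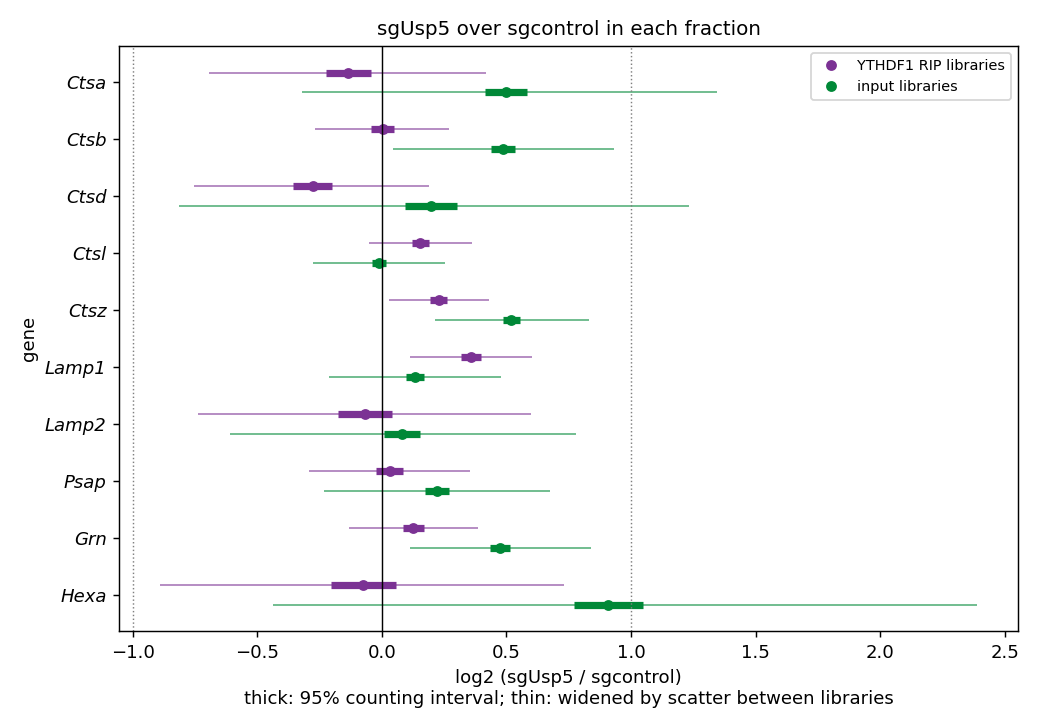
Log2 ratio of sgUsp5 over sgcontrol for each gene in the YTHDF1 RIP libraries (purple) and the inputs (green), 1 library per group. Thick bars are 95% counting intervals, thin bars are widened by the scatter between libraries, and dotted lines mark 2-fold. In the inputs 9 of 10 points lie right of 0, in the RIPs 6 of 10.

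The third comparison set RIP over input in sgUsp5 cells against the same ratio in sgcontrol cells. It uses the 4 libraries already described and is the guide ratio of the RIPs minus that of the inputs, so it restates both. For 8 of 10 genes the enrichment was lower in sgUsp5 cells, as it was for 49.2% of genes at this abundance. The enrichment was higher for Lamp1 (log2 0.23) and Ctsl (0.17). The median over the 10 was -0.32, where genes at this abundance had a median of 0.01 and quartiles of -0.26 and 0.28. 0 of 10 were called at 2-fold with a counting interval, where 22.8% of all genes and 3.05% of those at this abundance were.

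Hexa lay closest to that size at 1.98-fold lower (log2 -0.98, counting interval -1.17 to -0.79), and reached it with library totals alone (log2 -1.03). Ctsa (log2 -0.63), Ctsb (-0.48) and Ctsd (-0.48) came next among the lower ones. Of the intervals widened by scatter at the members' abundance, all 10 spanned 0, where those of 3.80% of genes at this abundance excluded it. With the smaller scatter of genes at a log2 CPM of 0 to 6, the intervals of Ctsb (-0.88 to -0.08) and Ctsz (-0.579 to -0.00169) lay below 0. The ratios between the inputs were larger than those between the RIPs for Hexa, Ctsa and Ctsb, as the values above show, and for Ctsd the 2 were of like size and opposite sign.

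The profiles of the 10 genes over the 4 libraries also differed among themselves. Centred on its mean, the median profile of the members had its highest value in the sgUsp5 input (0.39 on the log2 scale), with -0.14 in the sgUsp5 RIP, -0.26 in the sgcontrol RIP and -0.02 in the sgcontrol input. Grn and Ctsz lay nearest to it, at Euclidean distances of 0.141 and 0.144 over 4 libraries, and Ctsd (1.09) and Lamp2 (1.00) lay farthest. The 3 nearest genes outside the list, among 5117 whose log2 CPM averaged 5 or more, lay at distances of 0.0596, 0.0603 and 0.0648, and their IDs were not paired with names.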

How the data were processed

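The authors deposited raw read counts per Ensembl gene ID for the 4 libraries in 1 table. The tools named in the submitters' processing notes are HISAT2 2.1.0 and featureCounts 1.6.3, on mm10; annotation release, strand, multiple matches and duplicates are not given in the labels' protocols. Columns were assigned by the short names in the labels, and 0 columns were left over. The reference table (49997 genes) paired 0 Ensembl IDs with names, so other lysosome genes, markers, Usp5 and Ythdf1 were not analysed here. It gives genomic spans but no transcript lengths, so levels per length were not computed.

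Counts were scaled with TMM over the 4 libraries (factors 1.06 and 0.969 for sgUsp5 RIP and input, 1.05 and 0.926 for sgcontrol RIP and input). The filter kept genes averaging 1 CPM or more. Log2 ratios have 0.5 counts added, in proportion to library size. Intervals were Clopper-Pearson intervals of how reads split between libraries, or come from the sum of reciprocal counts for the ratio of enrichments. A count of 0 would allow 3 counts (0.0841 to 0.105 CPM). Tests used edgeR 4.0.16 (R 4.3.3), with DESeq2 1.42.0 as an alternative, each fitted on all genes kept by the filter. Both were run as additive fits of guide and fraction. RIP and input of a guide are paired because they come from 1 lysate. The code was tested on simulated data. Other normalisations, filters, added counts and intervals were tried. All 10 members are named, and members and lists were chosen with earlier results of these data known.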

Additional observations from a re-analysis of the deposited data

Results flagged for a closer look

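With 1 library per group, a gene was singled out where its ratio went opposite ways in the 2 lines or the 2 fractions, with counting intervals that excluded 0 on both sides. The difference was not tested. This rule was applied to the members only, and how many of all genes it would single out was not counted here. For RIP over input, Ctsb had a log2 ratio of -0.32 in sgUsp5 cells and 0.16 in sgcontrol cells. Hexa had -0.57 in sgUsp5 cells and 0.41 in sgcontrol cells. For sgUsp5 over sgcontrol, Ctsa had 0.50 in the inputs and -0.13 in the RIPs. Ctsd had 0.20 in the inputs and -0.28 in the RIPs. With intervals widened by the scatter between libraries, at least 1 of the 2 intervals spanned 0 for each of the 4 genes.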

How the results depend on the processing

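Calls of Lamp2 and Ctsl over both lines held under 10 alternatives without a minimum fold (highest adjusted p 0.0195 and 0.0256). For RIP over input over both lines, 5 members lower and 1 higher (3263 genes in all) became 2 lower and 0 higher with 10 reads over the 4 libraries (1513 genes in all) or with no filter (1252), 1 lower and 0 higher at 2-fold (1564), 2 lower with library totals alone, and 0 higher with DESeq2's Wald test or the legacy dispersion method. Library totals moved the median log2 RIP over input of all genes to 0.15 in sgUsp5 and 0.21 in sgcontrol cells, where TMM gave 0.02 and 0.03. Over both lines Ctsb moved to 0.0738 and Hexa to 0.0355, both still below these medians. With them 1 member was higher in sgcontrol cells (Ctsd, log2 1.07), 1 had a lower ratio of enrichments (Hexa, -1.03), and Ctsa (0.11) and Ctsz (0.04) changed sign in sgcontrol cells. Without the guide as a block, 5 members were lower and 1 was higher, as with it.

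Counts over all genes moved with the filter and the interval, in part by construction. For RIP over input in sgUsp5 cells (3829) they were 6990 with 10 reads, 7226 with no filter, 750 where log2 CPM averaged 5 or more, and 1437 and 1028 with intervals widened by scatter at a log2 CPM of 0 to 6 and at the members' abundance. In sgcontrol cells (4323) they were 7478, 7741, 1016, 1815 and 1383. For the inputs (3180) they were 5617, 5726, 98, 218 and 92, and for the RIPs (1185) 4179, 4663, 6, 150 and 50. The ratio of enrichments (2953) had 134 at that abundance, and 239 and 84 with widened intervals. For sgUsp5 over sgcontrol in both fractions, the 4 genes became 0 with 10 reads, with no filter or with no block, 7 with DESeq2 size factors, 22 with DESeq2's test, 16 where log2 CPM averaged 5 or more and 28 at the members' abundance, with 0 members called in each. No single library could be left out, since each group has 1. Depth limits Hexa most, with 627 reads in its lowest library.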
